A study of Neogale vison with 6 samples.

Results

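Genes with ZNF and ZFP symbols encode zinc finger proteins, most of which bind DNA through tandem C2H2 fingers, and they were compared here between untreated Mv1Lu cells and Mv1Lu cells subjected to cholesterol depletion (CD). Of 24526 genes in the count table, 254 had a symbol made of ZNF or ZFP and a number, and the 127 of them with a total of 300 counts or more over the 6 libraries were taken. Mv1Lu is a line of mink lung epithelial cells. CD lasted 16 h and joined lovastatin, an inhibitor of HMG-CoA reductase, with mevalonate, each at 50 µM, in medium with 10% lipoprotein-deficient serum (LPDS). The 3 control libraries came from untreated cells, so that statin, mevalonate and LPDS cannot be told apart in the comparison. Nothing in the labels says that the 3 libraries of a group came from separate cultures.

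In a C2H2 finger a zinc ion holds a short loop and helix together, and the helix reads a few bases of DNA. Arrays of such fingers make up the largest class of mammalian transcription factors. Many members carry a KRAB box, which recruits the corepressor TRIM28 and through it the histone methyltransferase SETDB1 and HP1 proteins, so that the bound sequence, often a transposable element, is packed into heterochromatin. Others carry a SCAN domain, through which the proteins pair. Some ZNF and ZFP symbols belong to proteins that bind RNA, ribosomes or the mitotic spindle instead of promoters. Cells that run short of sterol are known to activate SREBP2 and with it the genes of sterol synthesis and uptake.

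The reads counted on genes numbered 13473820 to 18633764 per control library and 14426841 to 16309954 per CD library. Levels are given as CPM (counts scaled to a common library size, here after TMM), a unit that is not divided by transcript length, so that levels are compared between libraries of a gene and not between genes. The CD libraries spread more than the control libraries, with a median coefficient of variation (CV) of 17.0% against 8.80% over the 12148 genes tested, and leaving out CD replicate 3 raised the number of calls. In CD replicate 3, 41.4% of the reads were not assigned to a gene, beside 31.1% and 31.8% in CD replicates 1 and 2 and 29.3% to 47.2% in the control libraries. Unmapped reads were 9.37% in CD replicate 3 and 3.54% and 4.33% in CD replicates 1 and 2. In control replicates 1, 2 and 3 they were 18.4%, 13.6% and 4.25%. The part of these shares in the calls was not tested. Counts of calls without CD replicate 3 are also given for the whole set and for its genes with and without a KRAB box. For the other groups and lists they are given in part or not at all. Of 7 mesenchymal markers, CDH2 was called higher (log2 fold change 0.74) and COL1A1, COL1A2 and PDGFRB lower (-0.93, -0.37 and -1.08), and vimentin (VIM), which was not called, stood at 3933 to 4151 CPM in control and 3690 to 4788 CPM in CD libraries. The epithelial markers EPCAM, CDH1 and CLDN7 did not exceed 0.432 CPM in any library, whereas the keratin KRT19 stood at 883 to 1011 CPM in control and 379 to 533 CPM in CD libraries. The 6 lung epithelium markers summed to 1.76 to 2.65 CPM in control and 0.983 to 1.47 CPM in CD libraries, with the surfactant genes SFTPB and SFTPC at 0 counts in all 6 libraries and SCGB1A1 called lower. The 4 endothelial markers summed to 0.0723 to 0.220 CPM in control and 1.17 to 1.96 CPM in CD libraries, with VWF called higher. The summed level of 8 epithelial markers was 1091 to 1215 CPM in control and 586 to 670 CPM in CD libraries, most of it KRT19, which was called lower, while CLDN4 was called higher (0.603 to 7.03 CPM in the group means). The summed level of 4 immune markers moved from 5.57 to 6.67 CPM in control libraries to 21.1 to 26.0 CPM in CD libraries, through CD68 and CSF1R, while PTPRC, which marks all leukocytes, had 1 count in all. The part of these markers in the results was not tested.

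The summed counts of the 127 genes gave no common direction among the CD libraries. They made up 0.312%, 0.304% and 0.300% of all gene counts in the control libraries and 0.316%, 0.320% and 0.291% in the CD libraries (replicates 1, 2 and 3 in that order, here and below). By these shares, CD replicates 1 and 2 lay above every control library and CD replicate 3 below every one. In summed CPM, which are scaled by TMM, this order was not seen. The control libraries gave 3163, 2956 and 3081 CPM and the CD libraries 3003, 3203 and 3022 CPM, with CD replicates 1 and 3 inside the control range. In the quasi-likelihood test of edgeR, with p-values adjusted over all 12148 genes and called under 0.05, 17 of the 127 were higher in CD, 18 were lower and 92 were not called. The called share was 27.6%, beside 47.7% of all genes tested and 49.4% of the 10193 tested genes that also had a total of 300 counts or more. By direction, 13.4% were higher and 14.2% lower, beside 24.8% and 22.9% of all genes. Without CD replicate 3, 27 were higher and 22 lower, or 38.6%, and the share of all genes tested also rose, to 58.6%. Without control replicate 1, 10 were higher and 11 lower (16.5%, beside 36.3% of all genes), and without control replicate 3, 10 and 12 (17.3%, beside 35.9%). Because the RNA is from whole cultures, less RNA per cell and fewer cells that express a gene cannot be told apart.

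The sizes of the changes were modest. The log2 fold changes ran from -2.04 to 1.82 with a median of 0.12, beside a median of 0.06 over all genes tested, and the median size without regard to sign was 0.35, beside 0.47 over all genes. At least 2-fold changes among the called numbered 4 higher and 2 lower. Such changes made up 10.6% (higher) and 9.64% (lower) of all genes tested, and 9.26% and 8.79% of tested genes with a total of 300 counts or more. In 26 genes all CD libraries lay above all control libraries, in 33 they lay below, and in 68 the groups overlapped, which leaves 46.5% without overlap, beside 58.0% of all genes tested. With 3 libraries against 3, an exact two-sided permutation test of a single gene cannot fall below p = 0.1, and the adjusted values borrow the variance that edgeR fits across genes.

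**Figure D1:**
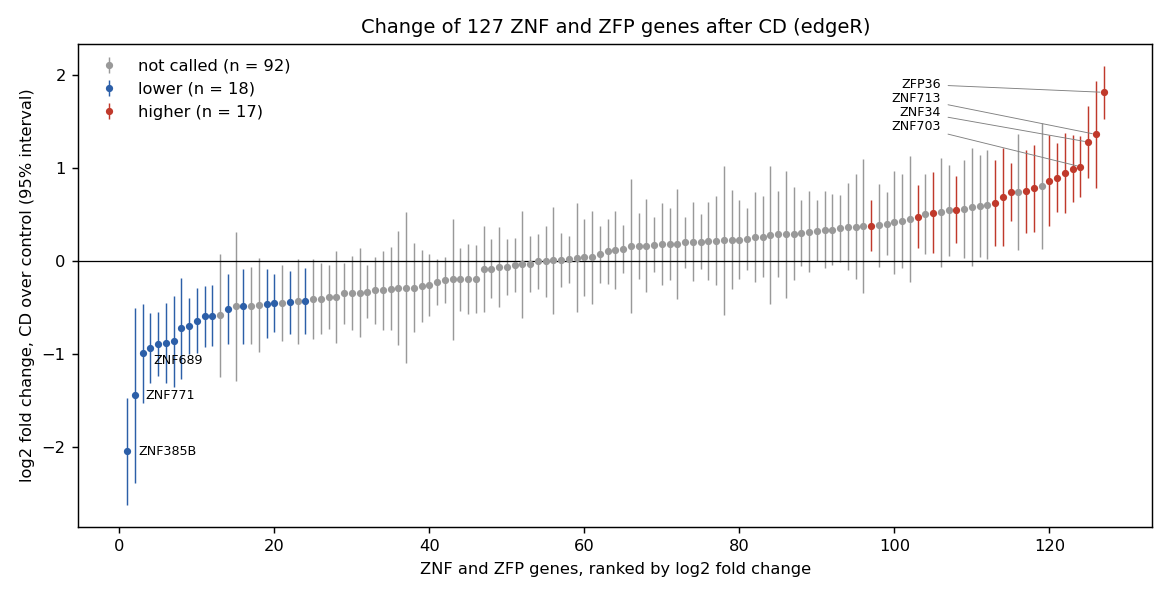
Log2 fold change (CD over control) of the 127 genes on the vertical axis, ranked from lowest to highest along the horizontal axis. Points are edgeR estimates, bars their 95% intervals, and colors the call (17 higher, 18 lower, 92 not called). ZFP36 stands at the upper end with 1.82 and ZNF385B at the lower end with -2.04.

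Of the 17 genes that rose, ZFP36 (ENSNVIG00000010527) changed most. It encodes tristetraprolin, a CCCH-type zinc finger protein that binds AU-rich elements in mRNAs of cytokines and growth regulators and brings about their decay, and not a C2H2 transcription factor. Its level was 25.9, 23.9 and 24.3 CPM in control and 77.6, 88.5 and 94.9 CPM in CD libraries. The lowest CD library stood far above the highest control library. This was a 3.52-fold rise, a log2 fold change of 1.82 ± 0.13 (SE, n = 3 per group) with an edgeR adjusted p of 3.26e-06.

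KRAB zinc finger genes followed. ZNF713 (ENSNVIG00000009656) stood at 2.51, 2.46 and 1.93 CPM in control and 5.29, 4.66 and 7.78 CPM in CD libraries, a log2 fold change of 1.36 ± 0.26 (edgeR adjusted p = 0.00165). All CD libraries were higher, with CD replicate 3 above the other two, and the log2 fold change without that library was 1.09. ZNF713 had 104 control and 270 CD counts, so that it reached the total of 300 through the CD libraries. For ZNF34 (ENSNVIG00000024185) the control libraries gave 3.94, 3.98 and 3.86 CPM and the CD libraries 9.53, 9.94 and 9.15 CPM. Both groups were tight and lay well apart, with a log2 fold change of 1.28 ± 0.17 (edgeR adjusted p = 2.26e-04). ZNF184 (ENSNVIG00000023446) moved from 10.5, 10.6 and 13.0 CPM to 18.7, 22.2 and 22.6 CPM, a log2 fold change of 0.90 ± 0.17 (edgeR adjusted p = 0.00152), again with no overlap.

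ZNF703 (ENSNVIG00000011581), a NET family corepressor that recruits Groucho-type repressors and is known as an oncogene of luminal breast cancer, measured 41.2, 36.6 and 40.6 CPM in control and 65.2, 92.0 and 82.0 CPM in CD libraries. The rise was 2.02-fold, with a log2 fold change of 1.02 ± 0.15 (edgeR adjusted p = 3.35e-04) and no overlap. Its paralog ZNF503 was not called, at a log2 fold change of -0.40 (edgeR adjusted p = 0.0753). The other two genes that rose about as much were ZNF821 (ENSNVIG00000007122) and ZNF524 (ENSNVIG00000012431), the latter a protein that binds telomeric repeats. ZNF821 went from 9.17, 7.66 and 8.82 CPM to 16.1, 17.5 and 17.5 CPM and ZNF524 from 6.73, 8.24 and 6.61 CPM to 11.6, 14.2 and 15.9 CPM. Their log2 fold changes were 0.99 ± 0.16 and 0.95 ± 0.19 (edgeR adjusted p = 6.81e-04 and 0.00249), and neither gene had overlapping groups.

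Another set of KRAB genes rose by less. ZFP90, whose protein also acts as a TRIM28 partner, stood at 4.73, 5.78 and 4.41 CPM in control and 11.1, 8.83 and 7.13 CPM in CD libraries (log2 fold change 0.87 ± 0.22, edgeR adjusted p = 0.00890). ZNF41 measured 2.65, 2.89 and 3.25 CPM against 4.36, 5.03 and 5.83 CPM (0.78 ± 0.21, adjusted p = 0.0115), and ZNF287, which carries a SCAN domain as well, 3.58, 3.25 and 2.87 CPM against 5.90, 4.85 and 5.55 CPM (0.75 ± 0.20, adjusted p = 0.0113). None of them overlapped between the groups. The calls missed the threshold without 1 control library while the log2 fold changes stayed near their size, at 0.78 for ZFP90 (edgeR adjusted p = 0.0524) and 0.66 for ZNF287 (0.0635) without control replicate 3, and at 0.71 for ZNF41 (0.0604) without control replicate 1. ZNF41 (136 control and 234 CD counts) and ZNF287 (147 and 252) also reached the total of 300 through the CD libraries. The remaining 7 genes that rose had log2 fold changes from 0.38 to 0.74, namely ZNF653, ZNF217, ZNF180, ZNF71, ZNF330, ZNF75D and ZNF205. Of these, ZNF653 was the steadiest, at 15.2, 13.9 and 15.2 CPM in control and 24.0, 24.4 and 25.8 CPM in CD libraries (0.74 ± 0.14, edgeR adjusted p = 0.00166).

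**Figure D2:**
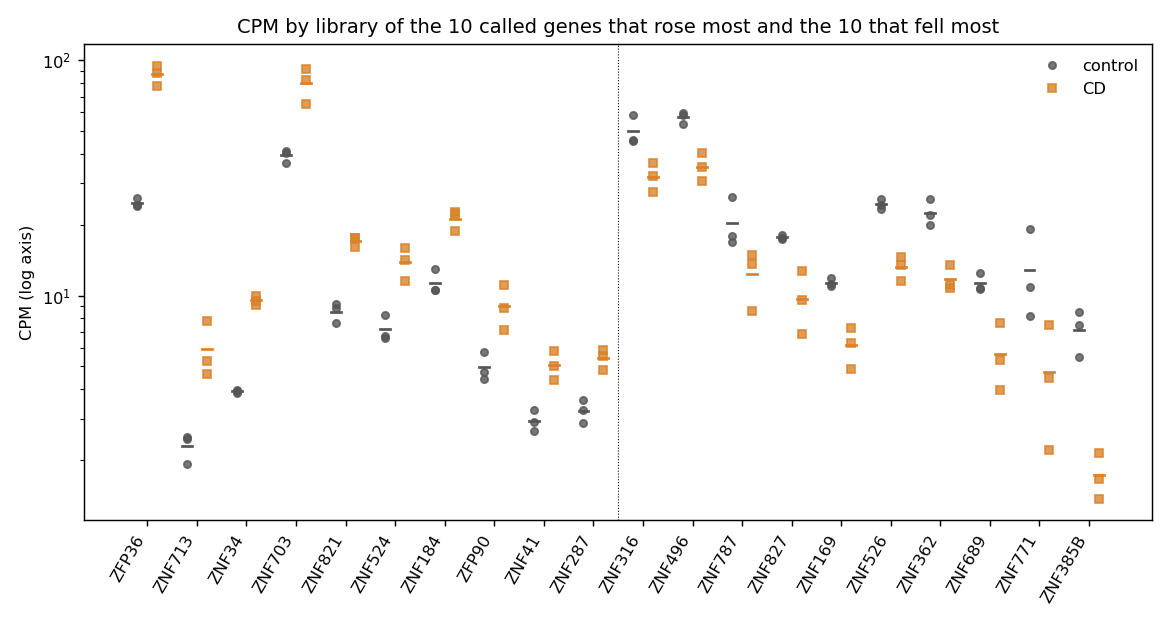
CPM of each library (log axis) for the 10 called genes that rose most and the 10 that fell most, control as grey circles and CD as orange squares, with bars at the group means. The 20 were chosen among called genes whose groups do not overlap, so that their separation was set by the choice. The groups are closest in ZNF771, where the lowest control library is at 8.21 CPM and the highest CD library at 7.49 CPM.

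Among the 18 genes that fell, ZNF385B (ENSNVIG00000007513), a member of a family with matrin-type fingers that bind RNA, fell most. Its level was 8.53, 5.49 and 7.49 CPM in control and 2.15, 1.66 and 1.37 CPM in CD libraries, so that every CD library lay well below the lowest control library. With 331 control and 81 CD counts, it reached the total of 300 through the control libraries. The fall was 4.12-fold, with a log2 fold change of -2.04 ± 0.26 (edgeR adjusted p = 1.41e-04). ZNF771 (ENSNVIG00000024996) fell next in size but with libraries that differed within both groups, at 19.3, 10.9 and 8.21 CPM in control and 2.21, 4.48 and 7.49 CPM in CD. Its log2 fold change was -1.44 ± 0.42 (edgeR adjusted p = 0.0176), and without control replicate 1 it was -1.03 with an adjusted p of 0.0797.

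ZNF689, ZNF169 and ZNF316, all KRAB zinc finger genes, fell together with ZNF362, ZNF526 and ZNF827. ZNF689 (ENSNVIG00000024979) measured 12.5, 10.7 and 10.7 CPM in control and 5.35, 7.67 and 3.96 CPM in CD libraries, with a log2 fold change of -0.99 ± 0.24 (edgeR adjusted p = 0.00695). ZNF362 (ENSNVIG00000017252) went from 25.6, 19.9 and 22.0 CPM to 11.1, 13.4 and 10.7 CPM (-0.94 ± 0.17, adjusted p = 0.00133). ZNF526 (ENSNVIG00000024596) went from 24.3, 25.7 and 23.4 CPM to 11.5, 13.5 and 14.6 CPM (-0.89 ± 0.15, adjusted p = 9.72e-04). In each of these the CD libraries were all lower. ZNF169 (ENSNVIG00000014736) stood at 11.9, 11.0 and 11.2 CPM against 7.31, 6.26 and 4.90 CPM, with a log2 fold change of -0.88 ± 0.19 (edgeR adjusted p = 0.00408). ZNF827 (ENSNVIG00000008646), whose protein brings the NuRD complex to telomeres, was narrow in control (18.1, 17.6 and 17.4 CPM) and wide in CD (12.7, 9.57 and 6.84 CPM), with a log2 fold change of -0.86 ± 0.22 (edgeR adjusted p = 0.00880). It did not overlap.

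ZNF496 (ENSNVIG00000002647), a KRAB and SCAN protein that binds the histone methyltransferase NSD1, also fell. It measured 58.5, 53.6 and 59.6 CPM in control and 35.2, 40.3 and 30.5 CPM in CD libraries (log2 fold change -0.69 ± 0.14, edgeR adjusted p = 0.00216). ZNF316 went from 58.5, 45.3 and 45.8 CPM to 32.1, 36.5 and 27.4 CPM (-0.64 ± 0.16, edgeR adjusted p = 0.00759). Both lay wholly below control. ZNF787 was called (-0.72 ± 0.24, edgeR adjusted p = 0.0333), with control replicate 1 apart at 26.2 CPM from 18.0 and 17.0 CPM and CD libraries at 8.60, 13.6 and 14.9 CPM. Without control replicate 1 its log2 fold change was -0.50 with an adjusted p of 0.16. The other 8 genes that fell had log2 fold changes from -0.59 to -0.43, namely ZNF408, ZNF512B, ZNF335, ZNF384, ZNF777, ZNF786, ZNF629 and ZNF668. ZNF512B was at 101, 93.5 and 117 CPM in control and 71.6, 78.4 and 57.7 CPM in CD (-0.58 ± 0.15, edgeR adjusted p = 0.00787).

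The calls differed in how they held over 15 other settings (other scalings, tools and filters, the replicate number as a block, and each library left out). Of the 17 genes that rose, 8 were called in the same direction in all 15, and of the 18 that fell, 10 were. ZNF217, an oncogene whose protein sits in CoREST complexes, was called in 7. Its CPM were 22.0, 18.1 and 19.1 in control and 38.3, 37.3 and 19.7 in CD libraries, so that CD replicate 3 lay within the control range and the groups overlapped (log2 fold change 0.69, edgeR adjusted p = 0.0347). ZNF330 was called in 6 settings, ZNF668 in 8, and ZNF180 and ZNF777 in 9 each. No called gene changed sign in any setting.

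Grouped by the domains of their human counterparts, 43 genes had a KRAB box and 84 had none. Of the 43 with a KRAB box, 9 rose, 6 fell and 28 were not called (34.9% called), and their median log2 fold change was 0.21. Of the 84 without one, 8 rose, 12 fell and 64 were not called, with a median of 0.06 and a called share of 23.8%. The difference between the groups was not tested, and both shares lay below the 47.7% of all genes. With each library left out in turn, 4 to 12 KRAB genes were higher and 4 to 7 lower. The fewest were called without control replicate 3, with 4 and 4 (18.6%, beside 16.7% of the genes without a KRAB box and 35.9% of all genes), and without control replicate 1 there were 5 and 5. Without CD replicate 3 there were 12 and 7 (44.2%, beside 35.7% without a KRAB box). The 9 that rose were ZNF713, ZNF41, ZNF287, ZNF34, ZNF184, ZFP90, ZNF180, ZNF75D and ZNF205. Of these, ZNF713, ZNF41 and ZNF287 reached the total of 300 through the CD libraries, and they also enter the median of 0.21. ZNF385B, which reached that total through the control libraries, is among the 84 without a KRAB box. The 6 that fell were ZNF689, ZNF169, ZNF496, ZNF316, ZNF777 and ZNF786. The summed level of all KRAB genes was 617, 593 and 617 CPM in control and 578, 616 and 577 CPM in CD libraries, which overlapped.

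Of the 11 KRAB genes that also have a SCAN domain, ZNF287 and ZNF75D rose and ZNF496 fell (27.3% called, beside 47.7% of all genes tested), with a median log2 fold change of -0.06 over the 11. In 4 genes with a SCAN domain alone (ZNF24, ZNF174, ZNF397 and ZNF449), edgeR, DESeq2 and limma-voom each made 0 calls, and 1 had an unadjusted edgeR p under 0.05. With CD replicate 3 left out, edgeR called ZNF24 (0.76, adjusted p = 0.00231) and ZNF449 (0.62, adjusted p = 0.0112) as higher. ZNF174 and ZNF397 were not called there, and 58.6% of all genes were. Families outside the symbol rule were counted in the same way. Of 30 tested ZBTB genes, which pair the fingers with a BTB domain, 3 rose and 3 fell (20.0% called, median 0.08), and of 14 tested ZSCAN and ZKSCAN genes 3 rose and 0 fell (21.4% called, median 0.16), both shares below the 47.7% of all genes.

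**Figure D3:**
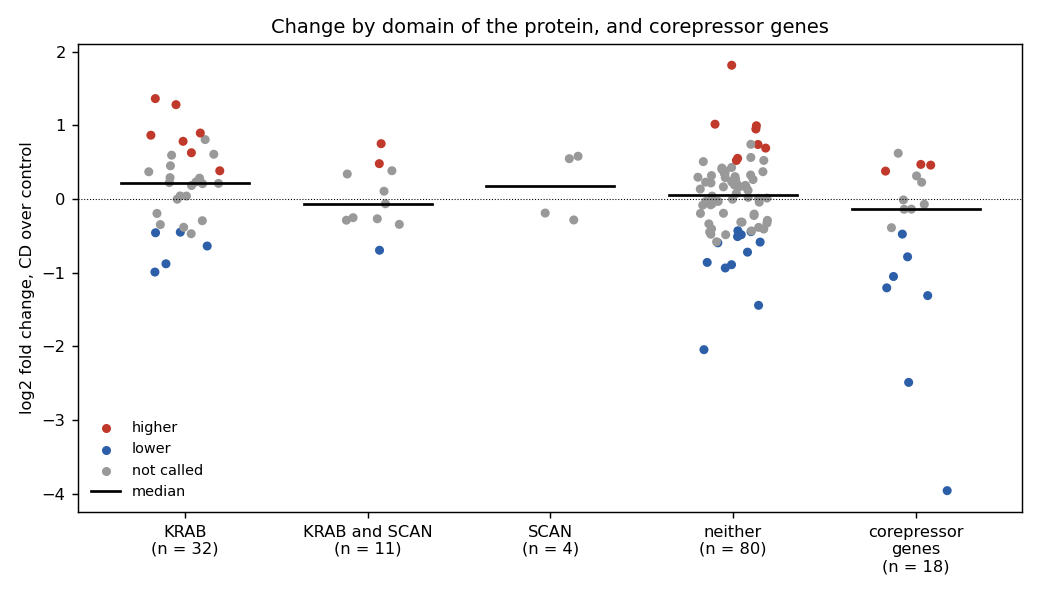
Log2 fold change (CD over control) of each gene by the domains of its protein (32 KRAB, 11 KRAB and SCAN, 4 SCAN, 80 neither) and of 18 genes of the corepressor list. That list holds KRAB corepressors and also HUSH subunits, remodelers and other factors of H3K9 and DNA methylation. Black bars stand at the medians and colors give the call. The medians lie between -0.14 and 0.22. Below -1 lie 5 genes of the list (TRIM28, UHRF1, DNMT1, SUV39H1 and SUV39H2) and 2 zinc finger genes, ZNF385B and ZNF771.

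A list of 24 symbols covered the corepressors that KRAB proteins recruit, together with HUSH subunits, remodelers and other factors of H3K9 and DNA methylation. Of these, 18 were in the table and tested, of which 3 rose and 7 fell, 5 of the latter by at least 2-fold (9.64% of all genes tested fell as much). That is 55.6% called, beside 47.7% of all genes, with a median log2 fold change of -0.14. Without control replicate 1, 6 of the 18 were called, beside 36.3% of all genes. TRIM28, the corepressor bound by the KRAB box, measured 1133, 1087 and 1240 CPM in control and 511, 581 and 578 CPM in CD libraries. All CD libraries lay at about the same level, far below control, and the log2 fold change was -1.05 ± 0.12 (edgeR adjusted p = 7.28e-05). SETDB1, which writes H3K9 trimethylation at sites bound by TRIM28, stood at 40.3, 40.6 and 47.3 CPM against 36.2, 34.4 and 27.3 CPM. Its CD libraries were all lower but the gene missed the threshold (-0.39 ± 0.15, edgeR adjusted p = 0.0516).

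The lowest log2 fold changes of the list were those of UHRF1, SUV39H1 and SUV39H2, ahead of DNMT1 and TRIM28. UHRF1, which guides the maintenance of DNA methylation behind the replication fork, dropped from 170, 171 and 196 CPM to 12.2, 12.1 and 10.2 CPM (log2 fold change -3.96 ± 0.14, edgeR adjusted p = 9.75e-08). The maintenance methyltransferase DNMT1 went from 294, 285 and 285 CPM to 120, 133 and 122 CPM (-1.20 ± 0.10, edgeR adjusted p = 1.25e-05). For SUV39H1, a methyltransferase of pericentric H3K9, the values were 92.6, 87.2 and 100 CPM and then 15.6, 17.2 and 17.1 CPM (-2.49 ± 0.13, edgeR adjusted p = 4.71e-07). In these genes the libraries of a group were close together and the groups far apart.

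SUV39H2 fell from 3.58, 2.82 and 3.25 CPM to 1.60, 0.920 and 1.37 CPM (log2 fold change -1.31 ± 0.26, edgeR adjusted p = 0.00239), EHMT2, which methylates H3K9 in euchromatin, from 250, 231 and 265 CPM to 150, 159 and 125 CPM (-0.78 ± 0.12, edgeR adjusted p = 5.69e-04), and the HP1 gene CBX5 from 29.9, 28.3 and 27.7 CPM to 21.4, 18.7 and 21.7 CPM (-0.48 ± 0.14, edgeR adjusted p = 0.0161). The HP1 gene CBX1 went the other way, from 24.3, 27.9 and 25.5 CPM to 38.8, 35.2 and 33.5 CPM (0.47 ± 0.13, edgeR adjusted p = 0.0150), as did HDAC2 (0.46, edgeR adjusted p = 0.0120) and MORC2 (0.38, edgeR adjusted p = 0.0232). Not called were, beside SETDB1, the chromatin remodeler ATRX (0.62, edgeR adjusted p = 0.0670), its partner DAXX (0.23), the SETDB1 partner ATF7IP (-0.14), the HUSH subunit TASOR (-0.01), CHD3 (-0.07), EHMT1 (-0.14) and SMARCAD1 (0.31). The fall of TRIM28, UHRF1, DNMT1, SUV39H1 and EHMT2 was called in all 15 settings, that of CBX5 in 11, and the rise of HDAC2, CBX1 and MORC2 in 13, 12 and 10. SETDB1 was called in 7 of the 15 and ATRX in 2.

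Some listed zinc finger genes have products that work outside promoters, in translation, on mRNA or at the spindle. ZNF598, the ubiquitin ligase that marks collided ribosomes, measured 179, 174 and 196 CPM in control and 152, 169 and 149 CPM in CD libraries. All CD libraries were lower, but the log2 fold change of -0.22 had a 95% interval from -0.47 to 0.02. ZNF622 and ZNF593, both factors of 60S ribosome assembly, were not called either. ZNF622 gave 99.9, 98.7 and 101 CPM against 78.6, 100 and 108 CPM, and ZNF593 67.8, 75.9 and 68.7 CPM against 40.9, 47.9 and 71.5 CPM. In ZNF593 CD replicate 3 lay inside the control range while the other two lay below it, and without that library the log2 fold change moved from -0.41 (edgeR adjusted p = 0.10) to -0.71 (1.14e-06). Over these 3 genes edgeR, DESeq2 and limma-voom made 0 calls, with 0 unadjusted edgeR p-values under 0.05. Of all genes tested, edgeR called 47.7%.

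Of 6 genes with roles in mRNA stability and splicing, ZFP36 alone was called (16.7%, beside 47.7% of all genes tested). ZNF638, a nuclear protein that binds RNA and is known from fat cell differentiation, came close (log2 fold change 0.51, edgeR adjusted p = 0.0513) and was called in 5 of the 15 settings. Leaving out CD replicate 3 was one of these settings (0.53, edgeR adjusted p = 0.0065). The other 4 were ZNF326 (0.30), ZNF830 (0.34), ZNF106 (-0.29) and ZNF346 (-0.43). ZNF106 illustrates the spread among the CD libraries, with 22.2, 21.8 and 18.8 CPM in control and 26.1, 13.8 and 11.4 CPM in CD. Of 6 genes of the spindle and of genome upkeep, ZNF827 and ZNF335 fell and none rose. That is 33.3% called, beside 47.7% of all genes tested, and 22.9% of all genes tested fell. ZNF335, a subunit of a histone H3K4 methyltransferase complex, went from 64.1, 55.9 and 69.6 CPM to 47.9, 51.4 and 33.9 CPM (log2 fold change -0.51, edgeR adjusted p = 0.0302). ZNF207, also called BuGZ, which loads BUB3 onto kinetochores, stood at 114, 110 and 107 CPM in control and 104, 95.1 and 88.4 CPM in CD libraries. Its CD libraries were lower throughout, with a log2 fold change of -0.20 (95% interval -0.45 to 0.04). The others were ZNF277 (0.37), the SUMO ligase ZNF451 (0.22) and ZNF618 (-0.48), a partner of UHRF2.

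Of the list of factors that bind promoters, 7 were measured and none was called, beside 47.7% of all genes tested. Over these 7, edgeR, DESeq2 and limma-voom made 0 calls, with 0 unadjusted edgeR p-values under 0.05. With CD replicate 3 left out, edgeR called ZNF24 as higher (0.76, adjusted p = 0.00231) and none of the other genes of this list. ZNF219 stood at 247, 219 and 218 CPM in control and 195, 264 and 263 CPM in CD libraries. The groups overlapped, and the log2 fold change of 0.08 had a 95% interval from -0.23 to 0.38. The log2 fold changes were 0.26 for ZNF143 and 0.20 for ZNF76, which share a binding motif at promoters, 0.38 for ZNF148, and -0.27 for ZNF263. ZNF202, known as a repressor at promoters of genes of lipid and lipoprotein metabolism, gave 12.8, 12.4 and 13.2 CPM in control and 11.1, 10.9 and 8.14 CPM in CD libraries. All CD libraries were lower, with a log2 fold change of -0.34 (edgeR adjusted p = 0.14). ZNF24, a SCAN protein, measured 9.39, 10.4 and 8.04 CPM against 20.8, 11.3 and 9.29 CPM, and CD replicate 1 stood apart from the other two. ZNF768 was at 100, 85.8 and 88.1 CPM in control and 87.5, 94.8 and 95.9 CPM in CD (log2 fold change 0.02, 95% interval -0.23 to 0.28).

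The next 3 lists are small, and 47.7% of all genes tested were called. In the 3 partners of ZMYND8 (ZNF687, ZNF592 and ZNF532), which act together at chromatin, the log2 fold changes were -0.31, 0.14 and -0.34, and edgeR, DESeq2 and limma-voom made 0 calls, with 0 unadjusted edgeR p-values under 0.05. Of 4 cell identity factors ZNF217 alone was called by edgeR, DESeq2 called 1 and limma-voom 0. The others were ZNF423 (-0.19), ZNF462 (0.24) and ZNF609 (0.35). Without CD replicate 3, edgeR also called ZNF462 (0.33, adjusted p = 0.0206) and ZNF609 (0.47, adjusted p = 2.98e-04) as higher, and 58.6% of all genes were called. ZNF423 was not called there either. The list of imprint and zinc finger cluster silencing (ZNF274, ZNF445 and again ZNF202) gave 0 calls with each of the 3 tools and 0 unadjusted edgeR p-values under 0.05. ZNF274, which binds the ends of zinc finger genes and brings SETDB1 to them, had all CD libraries above control (log2 fold change 0.34, edgeR adjusted p = 0.16). ZNF445, a guardian of imprinted marks, gave 4.59, 4.05 and 4.35 CPM in control and 5.47, 3.56 and 1.51 CPM in CD libraries, falling on both sides of the control level. ZNF746, also called PARIS, a repressor of PPARGC1A, lay lower in all CD libraries but was not called (-0.35, edgeR adjusted p = 0.0745).

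The median CV of these genes was 9.26% among the control and 16.4% among the CD libraries, beside 8.80% and 17.0% over all genes tested. A CV above 30% was seen in 27 genes among the CD libraries and in 1, ZNF771, among the control libraries. In 20 of the 27 the level was highest in CD replicate 1 and lowest in CD replicate 3, in 4 it was the other way round, and 3 had another order. Over all 127 genes, 37 had the first order and 28 the second. In ZNF618 the CD libraries gave 7.74, 6.01 and 2.16 CPM, and in ZNF84, a KRAB gene, 6.21, 4.42 and 1.94 CPM. The opposite order was seen in ZNF771 and in ZNF428, with 15.4, 23.6 and 32.0 CPM. When CD replicate 3 was left out, 33 genes were called both ways, 16 were gained (11 higher and 5 lower) and 2 were lost. Among the gained was ZNF436, with 5.02, 6.36 and 4.90 CPM in control and 13.8, 9.02 and 5.55 CPM in CD libraries, whose log2 fold change moved from 0.81 (edgeR adjusted p = 0.0507) to 1.04 (1.46e-05). Also gained were ZNF24, ZNF503, ZNF593, ZNF609, ZNF638 and ZNF746. ZNF32, ZNF84, ZNF428 and ZNF436 are named for values that had been seen.

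**Figure D4:**
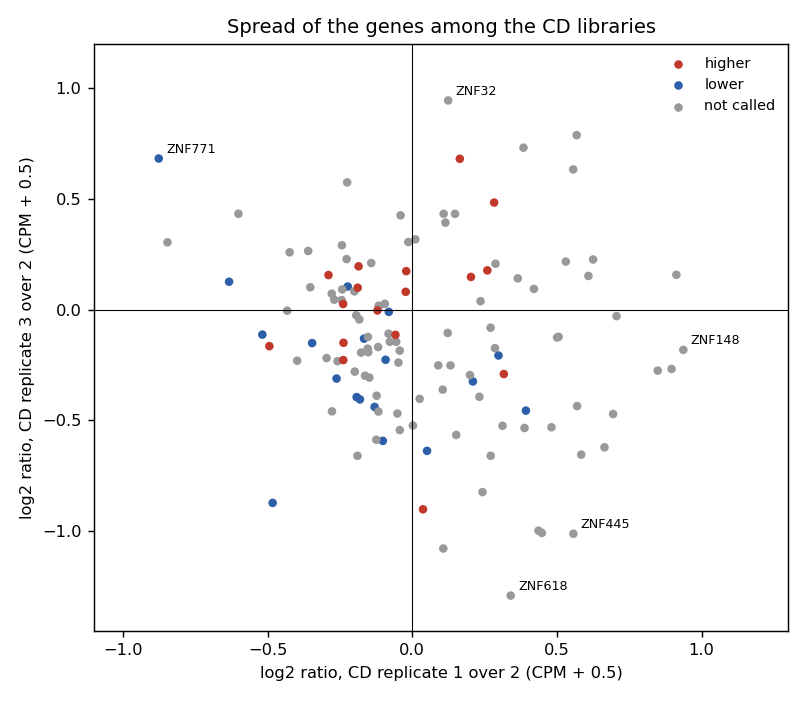
Each of the 127 genes by the log2 ratio of its CPM in CD replicate 1 over 2 (horizontal) and CD replicate 3 over 2 (vertical), after adding 0.5 CPM, colored by the call. Genes at the lower right, such as ZNF618 (7.74, 6.01 and 2.16 CPM) and ZNF445, ran from high in replicate 1 to low in replicate 3, and ZNF771 at the upper left ran the opposite way.

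For the 92 genes not called, the 95% interval of the log2 fold change lay inside -1 to 1 in 77 and reached beyond in 15, so that a 2-fold change cannot be set aside in those 15. In 25 of the 92 the groups did not overlap, 10 with CD above and 15 with CD below, which is 27.2%, beside 21.1% of all tested genes that were not called. The precision was higher at higher counts. Genes with 300 to under 1000 counts in all had a median SE of 0.22, those with 1000 to under 3000 counts 0.16, and those with 3000 or more 0.14. The called share was 21.1% of 57, 33.3% of 42 and 32.1% of 28 genes in these ranges, beside 42.0%, 48.4% and 53.2% of all tested genes in the same ranges, where the median SE was 0.22, 0.18 and 0.13. The median size of the log2 fold change, without regard to sign, was 0.31, 0.43 and 0.23 for the zinc finger genes and 0.51, 0.47 and 0.41 for all tested genes.

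**Figure D5:**
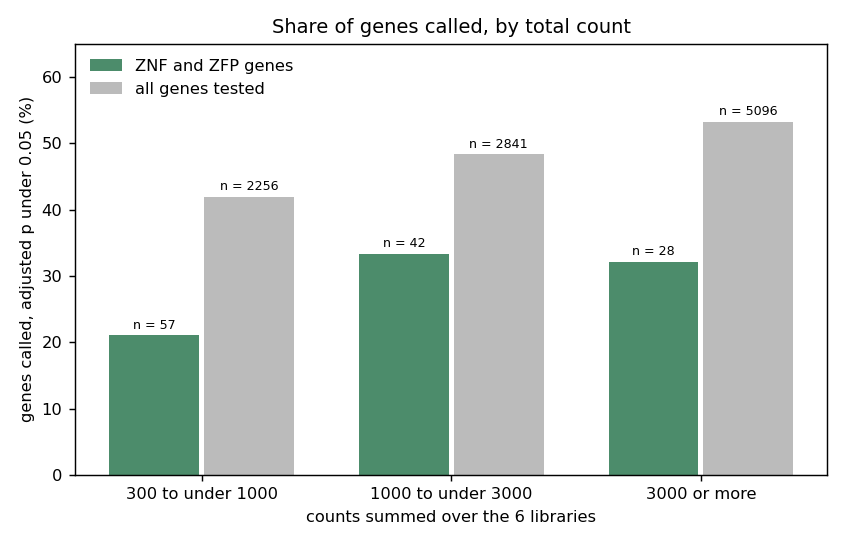
Share of genes called by edgeR (adjusted p under 0.05, percent, bars from 0) in 3 ranges of the count summed over the 6 libraries, for the ZNF and ZFP genes (green) and all genes tested (grey). The green bar is the lower one in each range, at 21.1%, 33.3% and 32.1% against 42.0%, 48.4% and 53.2%.

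The total of 300 counts that chose the genes was reached narrowly by ZNF23 (317 counts, 124 in control and 193 in CD libraries) and ZNF641 (324 counts, 135 and 189), and missed narrowly by ZNF197 (296 counts, 149 and 147) and ZNF45 (286 counts, 134 and 152). In 121 genes each group alone held 150 counts or more, 5 had fewer than 150 in control (ZNF23, ZNF641, ZNF41, ZNF287 and ZNF713) and 1, ZNF385B, had fewer in CD. Of the 127 symbols under the total, 65 had enough counts to be tested, of which 8 rose and 2 fell (15.4% called, beside 47.7% of all genes tested), with a median log2 fold change of 0.17.

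ZNF genes often sit in clusters along a chromosome. In the RefSeq gene order of mink assembly ASM_NN_V1, which is not the assembly the counts were made on, 121 of the 127 genes were found by symbol, and 7 pairs of them were next neighbours. The pairs had log2 fold changes of one sign in 4 cases and of opposite signs in 3, and in 0 pairs were both genes called. ZNF777 (-0.46, called) and ZNF746 (-0.35) moved the same way, as did ZNF449 (0.55) and ZNF75D (0.48, called), whereas ZNF205 (0.38, called) stood beside ZNF213 (-0.25) and ZNF24 (0.58) beside ZNF397 (-0.28). Genes of such clusters resemble each other, and how reads shared between near copies were assigned is not stated in the methods.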

How the data were processed

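Raw counts per gene were deposited by the authors for 3 control and 3 CD libraries of poly(A) mRNA. Reads had been trimmed with fastp 0.20.1, aligned with STAR 2.7.2a to mink assembly NNQGG.v01 and compared with DESeq2 1.30.1 in R 4.0.3 (submitters' notes and methods). The counting program and its strand setting are not given in the sources used here. The authors also deposited a normalized signal per library, the count divided by a size factor, from which whole reads were recovered for 100% of 147156 values within 0.01 reads. Their identifiers stood in another order, so they were paired by row and used for alternatives only. Beside the genes stood 4 rows that name no gene, with 29.3% to 47.2% of the reads, which were left out.

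Counts were tested with edgeR 4.0.16 in R 4.3.3 (filterByExpr with a minimum count of 10 and a minimum total of 15, TMM, glmQLFit with robust estimation, glmQLFTest, condition as the only term), with Benjamini-Hochberg adjustment over 12148 genes. The SE is the log2 fold change divided by the square root of F. P-values measure only the spread between these libraries, which may be technical. Alternatives used DESeq2 1.42.0, limma 3.58.1, other scalings, filters and thresholds, a pseudocount of 1 for limma on the normalized signal, a block for the replicate number, leaving out single libraries, and minimum totals of 100 and 1000.

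The members and lists were chosen with earlier results of these data known. Genes named were the 10 highest and 10 lowest called log2 fold changes without overlap, the 5 highest mean CPM and all members of the role lists; other genes named from the calls, the spread or the neighbours were chosen after their values were seen. KRAB and SCAN groups were assigned from general knowledge of the human proteins, since mink proteins were not read, and no sequence is given.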

Additional observations from a re-analysis of the deposited data

How the results depend on the processing

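The numbers of called genes moved with the libraries and the threshold. Leaving out each library in turn gave 10 to 27 higher and 11 to 22 lower zinc finger genes. The lowest were 10 and 11 without control replicate 1, with 10 higher also without control replicate 3, and the highest came without CD replicate 3. The called share of all genes ran from 35.9% to 58.6%. Of the genes of the corepressor list, 6 to 11 were called, lowest without control replicate 1. An adjusted p under 0.01 left 9 higher, 10 lower and 6 genes of the corepressor list, and the share of all genes at that threshold is not given here. A minimum total of 1000 counts left 9 higher and 14 lower of 70 genes. Of all tested genes, 48.4% were called at 1000 to under 3000 counts and 53.2% at 3000 or more. A minimum total of 100 counts gave 25 higher and 19 lower of 179, and the share of all genes at that total is not given here. Scaling moved little: the median log2 fold change of all genes stayed between 0.01 and 0.09 over the settings run, and the share of higher among called zinc finger genes was 48.6%, with 43.2% (limma on the normalized signal) and 55.9% (upper quartile) as the ends over the other scalings, tools, filters and the block. The edgeR test on the recovered reads gave 17 higher and 18 lower.

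A change of sign was seen only in genes that were not called. ZNF768 went to -0.0021 with DESeq2 and with its size factors in edgeR and to -0.00083 with limma on the normalized signal, and with a library left out ran from -0.037 to 0.0895. With a library left out, ZNF219 ran from -0.025 to 0.22, ZNF622 from -0.19 to 0.071, ZNF148 from -0.090 to 0.56 and ZNF445 from -0.74 to 0.023. The cause was not tested.

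The labels number the replicates but do not say whether control and CD libraries of a number were paired. The deviations of same-numbered libraries from their group means had correlations of -0.02, -0.33 and -0.18. Those of differently numbered libraries ran from -0.02 to 0.26. With 3 libraries per group such deviations depend on each other, so that these values cannot decide on a pairing. With the replicate block, 15 zinc finger genes were higher and 15 lower, and 9 genes of the corepressor list were called. Of all 12148 genes tested, 2772 were higher and 2636 lower with the block, beside 3016 and 2784 without it. The block lost 4 higher genes (ZNF180, ZNF205, ZNF330 and ZNF75D) and 4 lower ones (ZNF629, ZNF668, ZNF786 and ZNF771, the last with an adjusted p of 0.15), and gained 3, ZNF32, ZNF436 and ZNF593.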
